A study of Mus musculus with 18 samples.

Results

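The genes described here are the 147 mouse zinc finger protein (Zfp) genes with enough reads to follow in bone marrow-derived macrophages (BMDMs). They were chosen by name, as gene symbols made of Zfp, a number and at most 1 further letter, and by count, as genes with at least 50 counts in at least 9 of 18 libraries. The 49315 genes counted include 400 with such a name, so that 36.75% of them passed. The count minimum is the only measured value in this rule, but the rule itself was chosen with earlier results of these data known. The last genes inside it were Zfp992, Zfp60 and Zfp790, whose ninth highest count was 50 in each, and the first outside were Zfp428 (49), Zfp160 (49) and Zfp26 (48). Of the 147 genes, 43 had 50 counts in all 18 libraries, and 27 had at least 1 group in which no library reached 50.

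The macrophages came from mice labelled WT, which carry an Hdac3 allele with an exon between loxP sites, or HDAC3 KO, which carry this allele and in addition Cre driven by the Lyz2 (lysozyme 2) gene, so that deletion is limited to myeloid cells that have used it. Cells of each genotype were left with no treatment, or were cocultured for 45 min with K562 cells, a human leukemia line, then washed and kept for 5 h. The K562 cells were apoptotic cells (ACs), exposed to UVB for 15 min and used after 2 h, or non-apoptotic cells (NACs) without UVB. Each of the 6 groups held 3 libraries from biological replicates.

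Most Zfp genes encode proteins with tandem C2H2 zinc fingers, short folds in which pairs of cysteine and histidine residues hold a zinc ion and the helix between them reads a few bases of DNA. Many of these proteins also carry a KRAB domain, which binds KAP1 (Trim28) and through it brings the histone methyltransferase Setdb1, HP1 proteins and the NuRD deacetylase complex to transposable elements and imprinted regions. KRAB zinc finger genes arose by repeated local duplication and lie in clusters of related copies, while other members of the name series bind RNA, modify proteins or act as single-copy transcription factors.

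A KRAB pattern was found in the translated reading frame of 47 of the 147 genes, and 100 had none. A SCAN pattern was found in 5, all without KRAB, and 5 had no C2H2 pattern, among them Zfp36, whose fingers are of another type. The median number of finger patterns was 11 in the KRAB genes and 7 in the others. Of the KRAB genes 38 lay within 200 kb of another of the 147, compared with 27 of the 100 others, and chromosome 7 held 36 of the 147. The GC content of the exons had a median of 50.2% over the 147 genes, and ranged from 35.8% to 65.4%. It was 45.0% in the KRAB genes and 52.5% in the others. The median over the 13662 genes with enough counts across the series was 50.3%, close to that of the Zfp genes, whose SD was larger (7.13 percentage points, beside 6.09). Below, the 49 Zfp genes with the lowest GC content (under 45.5%), the 49 in the middle and the 49 with the highest (over 54.3%) are called low-GC, middle-GC and high-GC. The low-GC group held 25 KRAB genes and the high-GC group 6.

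The sequence of a single finger shows this range. The 4 coding stretches below each hold 1 finger, from its first cysteine codon to the last histidine codon, and the linker to the next finger in capitals. They are shown because Zfp991 and Zfp429 are low-GC KRAB genes and Zfp358 and Zfp771 high-GC genes without KRAB, and all were lower in the libraries labelled HDAC3 KO after ACs. All are from GENCODE M21 transcripts on GRCm38 and are printed 5′ to 3′ on the gene's strand: chr4:147178891-147178968 (plus strand, exon 7 of 7) for Zfp991, chr13:67390298-67390375 (minus strand, exon 4 of 4) for Zfp429, chr8:3496221-3496298 (plus strand, exon 2 of 2) for Zfp358, and chr7:127253856-127253933 (plus strand, exon 3 of 3) for Zfp771.
Zfp991: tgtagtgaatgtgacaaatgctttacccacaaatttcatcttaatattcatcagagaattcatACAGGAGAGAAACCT
Zfp429: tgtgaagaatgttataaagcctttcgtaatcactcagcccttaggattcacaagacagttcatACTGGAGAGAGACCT
Zfp358: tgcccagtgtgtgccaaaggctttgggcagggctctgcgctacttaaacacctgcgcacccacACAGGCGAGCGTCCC
Zfp771: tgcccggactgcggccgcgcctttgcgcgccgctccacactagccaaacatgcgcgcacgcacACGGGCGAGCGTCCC
The GC content of these 78 bases was 33.3% in Zfp991, 41.0% in Zfp429, 62.8% in Zfp358 and 73.1% in Zfp771. Zfp991 and Zfp429 had 51 of the 78 bases in common, Zfp358 and Zfp771 had 54, and Zfp429 and Zfp771 had 35.

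Library totals were 4704491 to 26421267 counts. Replicate 1 of untreated HDAC3 KO had the fewest, and there only 51 of the 147 genes reached 50 counts, compared with all 147 in replicate 1 of HDAC3 KO with NACs. Counts scaled to library size (CPM) of Hdac3, the deleted gene, did not separate the labels. Untreated, they were 3.38, 44.4 and 32.0 in WT and 38.7, 11.4 and 74.6 in HDAC3 KO. With NACs the WT libraries had 48.8, 44.0 and 11.6 and the HDAC3 KO libraries 4.66, 34.0 and 42.6. With ACs the WT libraries had 7.13, 38.3 and 29.7 and the HDAC3 KO libraries 39.8, 10.1 and 17.9. Genotype therefore means the genotype on the label throughout. Counts over the whole gene also include exons outside the deleted part. Summed macrophage markers (10 genes) were at 10893 CPM or more in every library, and the 10 genes of K562 and erythroid cells at 62.7 CPM or less. The Pearson correlation of log2 CPM between replicates, across genes, was 0.892 to 0.981 over all genes and 0.674 to 0.956 over the Zfp genes.

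Per kilobase of exon, the highest of the 147 was Zfp385a, a p53 target, with a mean of 166 RPKM (CPM divided by exon length in kilobases) over the 18 libraries. It was followed by Zfp358 (42.5), Zfp622 (30.3), a factor in maturation of the large ribosomal subunit, Zfp771 (30.1) and Zfp36 (29.0), which encodes tristetraprolin, a protein that brings about decay of inflammatory mRNAs with AU-rich elements. In all, 15 were above 10 on this scale and 34 below 1. The median was 1.38 in the KRAB genes and 2.42 in the others. The 147 genes together took 0.219% to 0.405% of the counts of a library.

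In CPM, Zfp36 stood at 63.3, 64.2 and 77.0 in untreated WT and at 107, 152 and 165 in untreated HDAC3 KO, so that the 2 groups did not overlap. The log2 fold change was 0.97 ± 0.39 (SE, n = 3 per group), and it did not pass the quasi-likelihood test of edgeR, with p-values adjusted by the Benjamini-Hochberg method (adjusted p = 0.0951). With ACs, Zfp36 was at 67.8, 106 and 89.5 in WT and 91.3, 105 and 164 in HDAC3 KO, and the groups overlapped. With NACs the means stood in the other order, at 106, 78.0 and 147 in WT and 69.1, 79.5 and 76.0 in HDAC3 KO, which also overlapped (log2 fold change −0.53 ± 0.32, adjusted p = 0.288).

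The level of Zfp genes in a library followed their GC content. The 49 low-GC genes had a median log2 CPM of 0.52, 0.62 and 0.82 above their mean over the 18 libraries in the 3 untreated WT replicates. In untreated HDAC3 KO the values were −0.42, −0.58 and −1.24. All 3 untreated WT libraries were high and all 3 HDAC3 KO libraries low. With NACs the order was turned, with −0.44, 0.31 and −0.34 in WT below 0.71, 0.54 and 0.37 in HDAC3 KO. With ACs they were 0.82, −0.23 and 0.23 in WT, and −0.93, −0.17 and −1.05 in HDAC3 KO, where replicate 2 lay within the WT range. The 49 high-GC genes moved the other way when untreated, with −0.74, −0.69 and −0.0067 in WT and 0.011, 0.49 and 0.65 in HDAC3 KO.

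All genes of the series showed the same order. Of 4 equal bins of all genes by GC content, the lowest had a mean of 0.41 in untreated WT and −0.44 in untreated HDAC3 KO on the same scale, and the highest −0.37 and 0.36. The sign of the low-GC minus high-GC difference was the same in the Zfp genes as in all genes in 17 of 18 libraries. Whether this arose in the cells or in library preparation was not tested. Values are therefore given from the counts as deposited and from a fit in which GC content and exon length enter as an offset, a smooth curve of each library's counts on both that is taken out before the test.

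**Figure D1:**
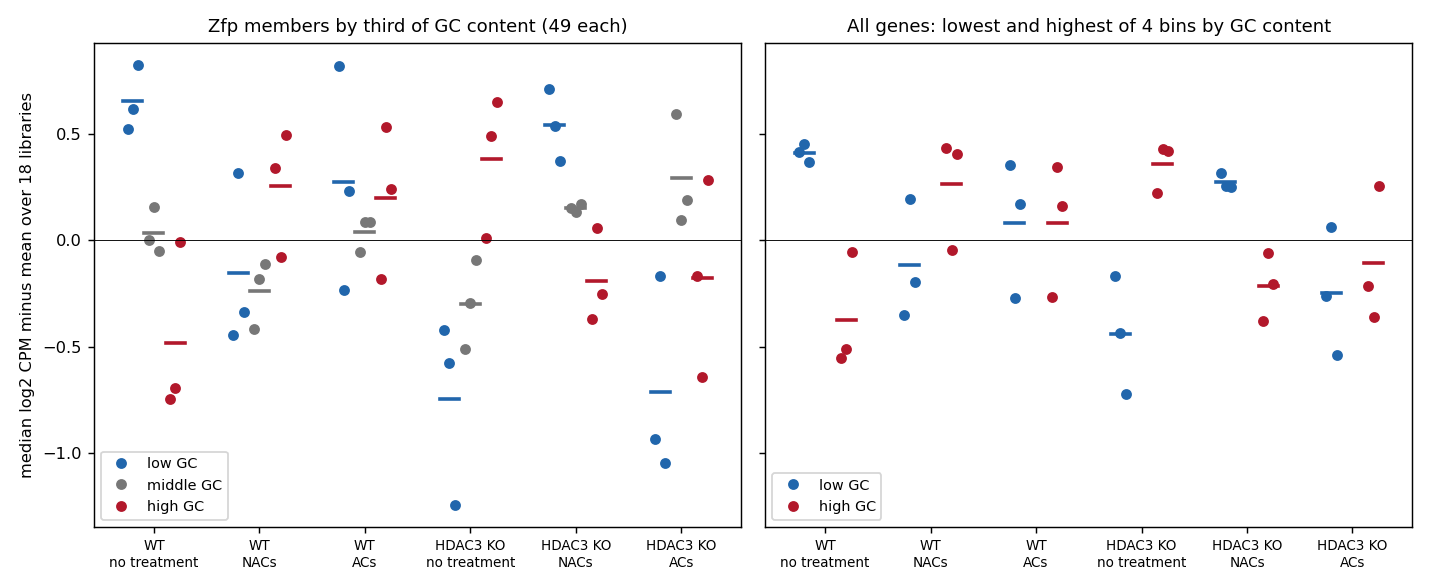
Median log2 CPM minus the mean over 18 libraries (vertical axis) in the 6 groups, for Zfp genes by GC content (left, 49 genes each) and for the lowest and highest of 4 GC bins of all genes (right). Points are libraries and lines are group means; low-GC genes are high in untreated WT and low in untreated HDAC3 KO in both panels, and high-GC genes are the reverse.

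HDAC3 KO was compared with WT after ACs by genotype label. Of the 147 Zfp genes 15 passed the test (adjusted p under 0.05, edgeR's quasi-likelihood test), and all 15 were lower in HDAC3 KO. This is 10.2% of them, beside 3.75% of the 12304 genes tested, and for lower genes 2.96%. Of the 15, 9 were low-GC, 5 high-GC and 1 middle-GC, and 6 had KRAB. The median log2 fold change was −1.08 in the low-GC genes, 0.31 in the middle-GC genes and −0.30 in the high-GC genes. Over all genes it was −0.42 in the lowest GC bin, 0.31 and 0.33 in the 2 middle bins and −0.29 in the highest. Within the low-GC genes it was −0.99 in the 25 with KRAB and −1.20 in the 24 without.

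Of the KRAB genes, Zfp729b fell most. Its CPM was 9.33, 1.54 and 7.01 in WT with ACs and 0.35, 1.18 and 0.88 in HDAC3 KO, which gave −2.91 ± 0.69 as log2 fold change (SE; adjusted p = 0.0311, edgeR). The groups did not overlap, although WT replicate 2 was close to the HDAC3 KO range. Zfp991 stood at 22.6, 12.2 and 37.3 CPM in WT and 1.89, 6.69 and 1.69 in HDAC3 KO (log2 fold change −2.80 ± 0.60, adjusted p = 0.0247). Zfp429 was at 14.3, 2.88 and 7.53 in WT and 1.85, 2.10 and 1.55 in HDAC3 KO (−2.18 ± 0.57, adjusted p = 0.0426). The other KRAB genes called were Zfp472, Zfp992 and Zfp809. Zfp809 silences retroviruses that use a proline transfer RNA as primer, and it was at 11.1 ± 2.46 CPM in WT and 3.47 ± 0.95 in HDAC3 KO (SD, n = 3), a log2 fold change of −1.73. Zfp729b, Zfp991, Zfp992, Zfp429 and Zfp472 lie among closely related copies, and reads shared between copies could be split or dropped in counting, so their values are uncertain as those of single genes.

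Zfp644, without KRAB, was at 27.6, 47.2 and 40.9 CPM in WT with ACs and 3.00, 11.7 and 4.73 in HDAC3 KO, and its log2 fold change was −2.60 ± 0.52 (adjusted p = 0.0189, edgeR). In untreated HDAC3 KO its replicates were far apart, at 134 CPM in replicate 1 and 11.4 and 5.57 in the others. Zfp800 fell from 6.05 ± 4.00 to 1.10 ± 0.51 CPM (SD, n = 3; log2 fold change −2.52). Zfp326, part of a complex that links transcription elongation to splicing, fell from 14.8 ± 5.50 to 4.17 ± 1.97 CPM (−1.84). Zfp35 was the other low-GC gene called.

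The 5 high-GC genes called were Zfp771, Zfp358, Zfp580, Zfp213 and Zfp628, all without KRAB. Zfp771 was at 62.9, 116 and 97.0 CPM in WT with ACs and 18.4, 22.5 and 24.1 in HDAC3 KO (log2 fold change −2.14 ± 0.41, adjusted p = 0.0153). Zfp358 was at 130, 195 and 160 CPM in WT and 31.1, 28.9 and 60.2 in HDAC3 KO (−2.08 ± 0.42, adjusted p = 0.0190). In both genes the lowest WT library was above the highest HDAC3 KO library.

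With this offset, 19 Zfp genes were called with ACs, 15 lower and 4 higher, beside 9.72% of all genes tested (5.28% lower and 4.44% higher). Of the 15 called without it, 10 were called again, each lower, and the median size of their 15 fold changes fell from 2.13 to 1.39. Zfp644 (−2.31, adjusted p = 0.0148), Zfp991 (−1.83, 0.0137), Zfp729b (−1.82, 0.0484), Zfp358 (−1.77, 0.00769) and Zfp771 (−1.16, 0.0238) kept the call, and Zfp800 (−1.69, 0.0732) and Zfp429 (−1.22, 0.0879) did not. For levels per library, a curve of the same kind was made over all 18 libraries, not only those compared. After it was taken out, the low-GC genes had a median of 0.37, 0.060 and −0.046 in WT with ACs and −0.26, −0.24 and −0.29 in HDAC3 KO, which no longer overlapped. Without replicate 1 of HDAC3 KO with ACs none of the 147 passed in the fit with the offset or in that without it. The share of all genes in these fits is not given, so the loss is not read as particular to the Zfp genes. Without replicate 2 of that group 34 passed, beside 13.3% of all genes (21 with the offset, beside 13.8%), without replicate 3 there were 7 beside 2.68% (13 with the offset, beside 7.47%), and without a WT library 10 to 20 beside 2.39% to 3.96%. With the offset and without replicate 1, 2 or 3 of WT there were 7, 5 and 6, beside 3.91%, 2.54% and 2.08% of all genes. Replicate 1 of HDAC3 KO had the highest share of mitochondrial counts (1.19%) and the highest sum of 8 fibroblast markers (241 CPM). The mitochondrial share was apart between the whole groups too, 0.493% to 1.19% in HDAC3 KO with ACs and 0.341% to 0.480% in WT. So were library totals, 18495507 to 22664522 counts in HDAC3 KO with ACs and 9385094 to 14929827 in WT. The share of the 10 most counted genes was 20.14% to 26.86% and 16.52% to 20.07%. The 10 macrophage markers summed to 16519 to 19610 CPM in HDAC3 KO with ACs and 11013 to 13096 in WT, with none at 0 throughout. The part of these values in the result was not tested.

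**Figure D2:**
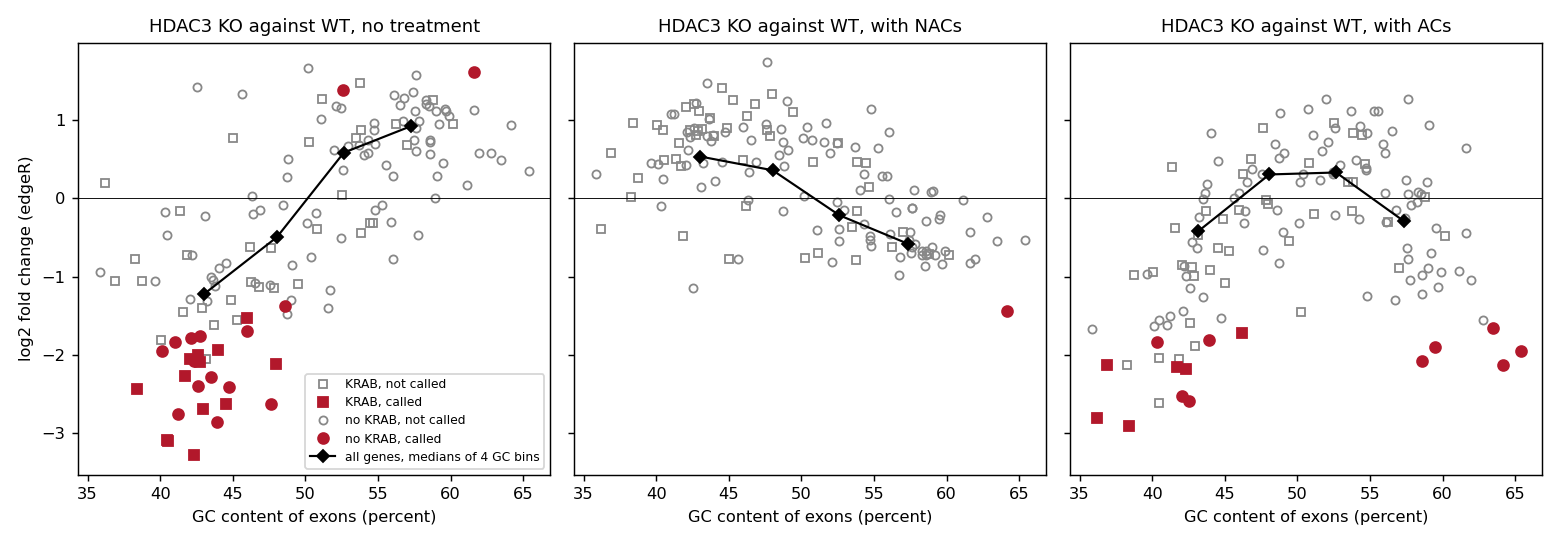
Log2 fold change of HDAC3 KO against WT for each of the 147 Zfp genes (edgeR) against the GC content of its exons in percent, untreated, with NACs and with ACs. Squares have a KRAB pattern, filled red symbols passed the test, and black diamonds are medians of all genes by GC bin. Of the 28 called genes 21 are low-GC when untreated, the 15 called with ACs lie mostly at both ends, and 1 is called with NACs. Of all genes 11.6% passed untreated, 3.75% with ACs and 0.864% with NACs.

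In untreated cells, compared by genotype label with no coculture, 28 Zfp genes passed, 26 lower and 2 higher in HDAC3 KO, beside 11.6% of all genes (8.56% lower and 3.04% higher). The DESeq2 Wald test gave a more even split, with 57 called, 34 lower and 23 higher. Its share of all genes is given under the processing. Of the 28, 21 were low-GC and 13 had KRAB. The median log2 fold change was −1.56 in the low-GC and 0.88 in the high-GC genes, beside −1.22 and 0.93 in the lowest and highest GC bin of all genes. Zfp429 was at 14.7, 9.25 and 15.1 CPM in WT and 2.01, 1.38 and 1.04 in HDAC3 KO, which gave −3.29 ± 0.50 as log2 fold change (adjusted p = 0.0183). Zfp748, another KRAB gene of chromosome 13, fell from 8.57 ± 3.02 to 1.03 ± 0.39 CPM (SD, n = 3; −3.09), and Zfp874a from 29.0 ± 22.4 to 3.62 ± 1.67 (−3.11), although the lowest WT value of Zfp874a was 3.93 CPM and its groups overlapped. These 3 also have closely related copies, and Zfp429 and Zfp748 had under 50 counts in every untreated HDAC3 KO library. Zfp35 was at 49.1, 42.0 and 71.6 CPM in WT and 15.1, 5.93 and 3.68 in HDAC3 KO (−2.86 ± 0.54, adjusted p = 0.0183), and Zfp277 at 41.0, 28.0 and 42.9 and at 5.79, 6.69 and 5.02 (−2.75 ± 0.43). Neither overlapped between genotypes.

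The 2 higher genes were Zfp703, a transcriptional corepressor, at 18.1, 13.0 and 18.5 CPM in WT and 34.5, 63.7 and 62.5 in HDAC3 KO (log2 fold change 1.62 ± 0.43, adjusted p = 0.0351), and Zfp592, a partner of the chromatin reader Zmynd8, at 10.3, 14.0 and 15.1 and at 29.7, 36.5 and 43.4 (1.38 ± 0.40, adjusted p = 0.0439). With the offset none of the 147 passed in untreated cells, and 0 of all 12101 genes did. The values then were −1.87 for Zfp429 (adjusted p = 0.0848), −1.25 for Zfp277 (0.138) and 0.64 for Zfp703 (0.418). The summed 8 B cell markers were also apart in untreated cells, 2.52 to 5.27 CPM in WT and 6.67 to 15.3 in HDAC3 KO. So was the mitochondrial share, 0.496% to 0.621% in WT and 0.272% to 0.434% in HDAC3 KO, and the part of either in the result was not tested. The calls moved with single libraries. None passed without replicate 2 or 3 of WT or replicate 3 of HDAC3 KO, fits whose share of all genes is not given. Without replicate 1 of WT 5 passed (0.608% of all genes), and without replicate 2 of HDAC3 KO 10 did (1.98%). Without replicate 1 of HDAC3 KO, the smallest library, 90 passed, beside 46.3% of all genes.

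With NACs, 1 Zfp gene passed, Zfp771, beside 0.864% of all genes. It was at 112, 78.1 and 76.6 CPM in WT and 17.5, 32.8 and 45.8 in HDAC3 KO (log2 fold change −1.45 ± 0.35, adjusted p = 0.0445), and its groups did not overlap. With the offset it was at −0.60 (adjusted p = 0.318), and 0 of the 147 passed, beside 0.00839% of all genes. The next by p were Zfp263 (1.24, adjusted p = 0.0674) and Zfp397 (1.47, adjusted p = 0.0796), and 47 of the 147 had an unadjusted p under 0.05, beside 24.2% of all genes. The median log2 fold change was 0.80 in the low-GC and −0.53 in the high-GC genes, beside 0.54 and −0.58 in the lowest and highest GC bin of all genes. Summed B cell markers were apart the other way round from untreated cells, 5.94 to 20.0 CPM in WT with NACs and 1.91 to 5.28 in HDAC3 KO. The mitochondrial share was 0.294% to 0.404% in WT and 0.409% to 0.577% in HDAC3 KO, and the part of either was not tested. Without replicate 2 of WT 47 passed, beside 24.6% of all genes, without replicate 3 of HDAC3 KO 1 did, and without any other single library none did.

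**Figure D3:**
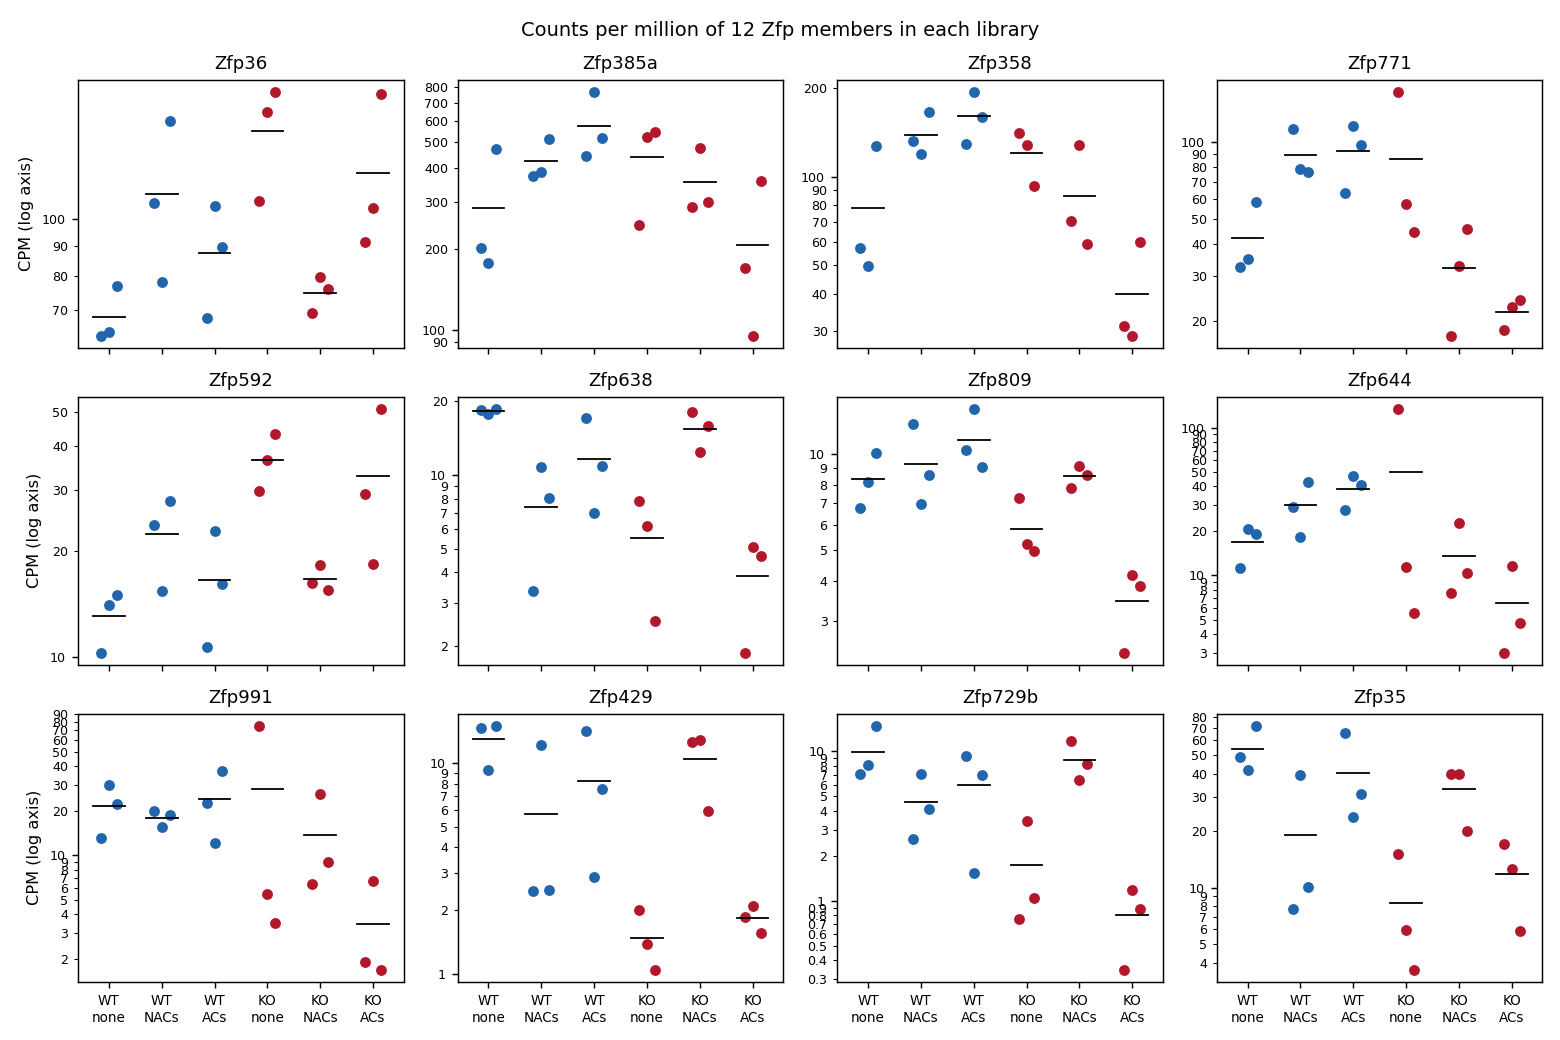
CPM (log axis) of 12 Zfp genes in each library of the 6 groups, WT in blue and HDAC3 KO in red, with lines at group means. With ACs all 3 HDAC3 KO libraries lie below all 3 WT libraries in Zfp385a, Zfp358, Zfp771, Zfp638, Zfp809, Zfp644, Zfp991, Zfp429, Zfp729b and Zfp35, while Zfp36 and Zfp592 overlap. The 12 genes were picked. Of the 147, 33 (22.4%) lay below WT without overlap with ACs and 15 (10.2%) above. The same share over all genes is not given, so this is not read as particular to the Zfp genes.

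Within HDAC3 KO, ACs against NACs gave 20 Zfp genes, 19 lower and 1 higher with ACs, beside 7.38% of all genes (4.73% lower and 2.65% higher). Of the 20, 19 were low-GC and 10 had KRAB. Zfp729b was at 11.7, 6.47 and 8.29 CPM with NACs and 0.35, 1.18 and 0.88 with ACs (log2 fold change −3.45 ± 0.53, adjusted p = 0.000468, edgeR). Zfp800 (−2.84), Zfp429 (−2.48), Zfp874a (−2.37) and Zfp472 (−2.13) followed, and the higher gene was Zfp553 (1.43). With the offset 12 passed, beside 5.33% of all genes, and 8 of them were among the 20, including Zfp729b (−2.28), Zfp800 (−1.89) and Zfp429 (−1.46). Without replicate 1 of HDAC3 KO with ACs none passed, without replicate 2 of that group 52 did, beside 23.9% of all genes, and without replicate 3 there were 6, beside 2.40%. Without replicate 1 or 2 with NACs 10 and 11 passed, beside 3.40% and 2.43%. Summed fibroblast markers were apart between these groups, 8.29 to 47.3 CPM with NACs and 83.5 to 241 with ACs, and so were B cell markers, 1.91 to 5.28 and 5.43 to 7.64. Their part in the result was not tested.

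Within WT none of the 147 passed between ACs and NACs (0% of 11844 genes with edgeR and none of the 147 with DESeq2), and 5 had an unadjusted p under 0.05, beside 4.16% of all genes. Between ACs and no treatment none passed in WT (28 at an unadjusted p under 0.05, beside 12.7% of all genes) or in HDAC3 KO (22, beside 14.5%), in edgeR or DESeq2. Of all genes 0% passed in edgeR, and with DESeq2 0% in WT and 0.0412% in HDAC3 KO. The 3 lowest p in WT with ACs against no treatment were of Zfp668, Zfp644 and Zfp771, at log2 fold changes of 1.12, 1.09 and 1.05 (adjusted p = 0.393 in each). In HDAC3 KO Zfp771 was at −1.88 and Zfp358 at −1.49 (adjusted p = 0.311 in both). Zfp790, also among the 3 lowest p there, stood the other way, at 0.50, 1.38 and 1.14 CPM untreated and 4.85, 3.49 and 2.10 with ACs.

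NACs against no treatment gave calls in both genotypes, in opposite directions for low-GC genes. In WT 18 Zfp genes passed, 14 lower and 4 higher with NACs, beside 8.52% of all genes (4.33% lower and 4.19% higher). In HDAC3 KO 20 passed, all higher, beside 6.54% (6.20% higher). The DESeq2 Wald test split otherwise, with 13 lower and 10 higher in WT, and 31 higher and 10 lower in HDAC3 KO. The shares of all genes for these splits are not given. Zfp277 was at 41.0, 28.0 and 42.9 CPM in untreated WT and 8.85, 19.8 and 8.33 with NACs (log2 fold change −1.65 ± 0.39, adjusted p = 0.0121), and its groups did not overlap. Zfp146 fell in WT (−1.77) and rose in HDAC3 KO (2.75 ± 0.49, adjusted p = 0.0353), where it went from 0.75, 2.20 and 1.54 CPM to 10.2, 6.67 and 11.2. Zfp429 (3.05), Zfp426 (2.66), Zfp748 (2.66) and Zfp729b (2.44) rose with it. No untreated HDAC3 KO library reached 50 counts in Zfp146, Zfp429 or Zfp748, so the size of their rise is uncertain. The 4 higher genes in WT were Zfp775, Zfp282, Zfp653 and Zfp954, with log2 fold changes from 1.16 to 1.39. With the offset none passed in either genotype, and no gene of the series did. In WT 66 passed without replicate 2 with NACs (34.2% of all genes), 21 without untreated replicate 3 (10.9%), 1 without untreated replicate 2 (0.262%) and none without the other 3 libraries. In HDAC3 KO 76 passed without untreated replicate 1 (beside 35.5% of all genes) and none without any of the other 5 libraries. Summed B cell markers were apart in both genotypes, at 2.52 to 5.27 CPM untreated and 5.94 to 20.0 with NACs in WT, and at 6.67 to 15.3 and 1.91 to 5.28 in HDAC3 KO. Fibroblast markers were apart in HDAC3 KO, 78.5 to 110 CPM untreated and 8.29 to 47.3 with NACs, and the mitochondrial share in WT, 0.496% to 0.621% and 0.294% to 0.404%. The part of these values in the calls was not tested. The smallest p that an exact permutation test of 3 libraries against 3 can give is 0.1, so such a test could not have called any single gene.

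**Figure D4:**
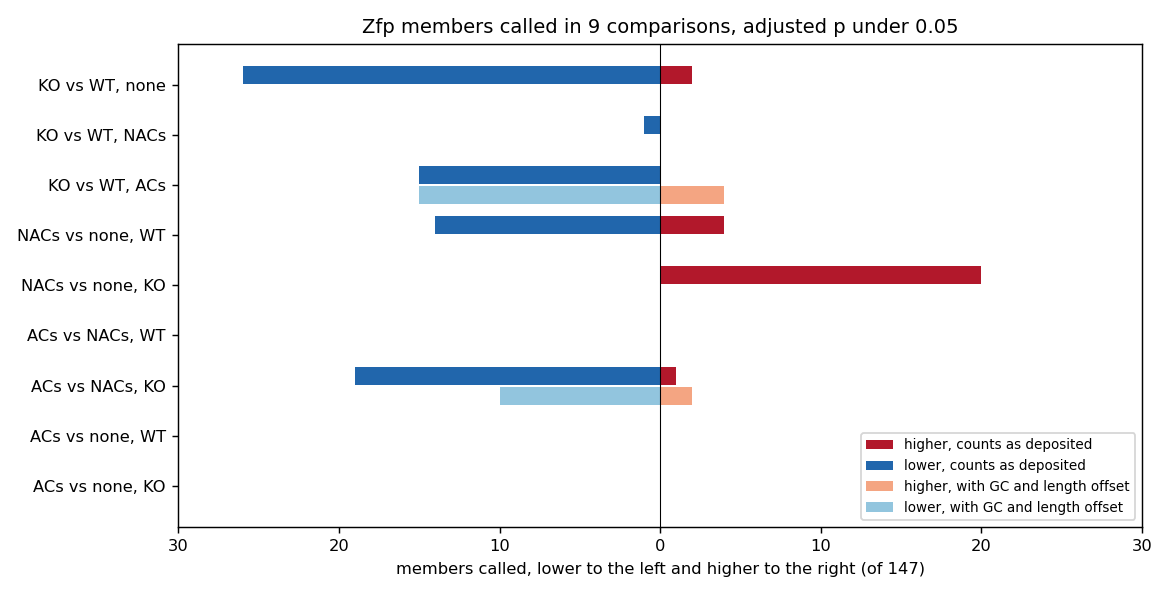
Number of the 147 Zfp genes called in 9 comparisons (adjusted p under 0.05, edgeR), lower to the left and higher to the right, from counts as deposited (dark) and with the GC and length offset (light). With the offset, calls are left in HDAC3 KO against WT with ACs (15 lower and 4 higher) and in ACs against NACs within HDAC3 KO (10 lower and 2 higher). These are 12.9% of the 147 beside 9.72% of all genes, and 8.16% beside 5.33%.

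Whether the genotype difference itself changed with treatment was tested by interaction terms. Between NACs and no treatment 72 of the 147 passed, 50 with a larger and 22 with a smaller HDAC3 KO minus WT difference with NACs, beside 34.8% of all genes (22.1% and 12.8%). With the offset 26 passed, beside 8.82%, and 19 of them were also among the 72 and in the same direction. Between ACs and NACs none passed with edgeR (43 at an unadjusted p under 0.05, beside 20.0% of all genes), beside 0.0765% of all genes. There 5 passed with the offset, beside 1.77%, and 19 with DESeq2, beside 5.80%. Between ACs and no treatment none passed in edgeR (0% of all genes; 42 at an unadjusted p under 0.05, beside 24.1%), and 18 with DESeq2, beside 9.26%. For ACs or NACs 24 passed without replicate 2 of WT with NACs (5.63% of all genes), 11 without replicate 2 of WT with ACs (1.64%) and 21 without replicate 2 of HDAC3 KO with ACs (6.14%). For ACs or no treatment 11 passed without untreated WT replicate 3 (3.47% of all genes) and 14 without replicate 3 of HDAC3 KO with ACs (8.11%).

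Across the 9 comparisons of 2 groups, 47 of the 147 genes (32.0%) were called at least once and 100 never, beside 23.1% called at least once of the 11157 genes tested in all 9. Zfp35 was called in 5, and Zfp157, Zfp277, Zfp397, Zfp429, Zfp472, Zfp639, Zfp729b and Zfp748 in 4 each. The genotype comparisons with ACs and untreated share no library. They had Zfp35, Zfp429, Zfp472 and Zfp729b in common, all lower in HDAC3 KO, 26.7% of the first list and 14.3% of the second. The same share over all genes is not given here, so this overlap is not read as particular to the Zfp genes.

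A list of 25 genes with a known role was also followed, of which 22 were among the 147. With ACs 2 of the 22 passed in HDAC3 KO against WT, Zfp326 and Zfp809, both lower, which is 9.09%, beside 3.75% of all genes. Both also passed with the offset (−1.08 and −1.67), as did Zfp598, which was higher, 3 of the 22 beside 9.72% of all genes. With NACs none of the 22 passed, beside 0.864% of all genes. Untreated, 4 of the 22 passed (18.2%, beside 11.6% of all genes), and none with the offset. Of these, 3 were lower and 1 higher: Zfp638 (−1.84), an RNA-binding protein that takes part in silencing of unintegrated retroviral DNA, Zfp143 (−1.70), a promoter-bound factor, and Zfp148 (−1.79), a GC-box binding factor, were lower, and Zfp592 was higher. Zfp638 was at 18.4, 17.8 and 18.6 CPM in untreated WT and 7.80, 6.18 and 2.54 in untreated HDAC3 KO. Zfp445, a KRAB protein needed for genomic imprinting, passed in HDAC3 KO with ACs against NACs, as did Zfp638 and Zfp148, all lower with ACs (13.6% of the 22, beside 7.38% of all genes). With the offset Zfp445 alone of the 22 passed, beside 5.33% of all genes. It was at 14.1, 11.7 and 16.2 CPM with NACs and 4.62, 7.19 and 4.39 with ACs. Zfp598, a ubiquitin ligase for collided ribosomes, was at 13.9 ± 1.61 CPM in WT with ACs and 27.9 ± 10.6 in HDAC3 KO (SD, n = 3; adjusted p = 0.183, and 0.0424 with the offset). Zfp207, a spindle checkpoint protein, was at 71.9 ± 8.04 CPM in untreated WT and 35.5 ± 3.40 in untreated HDAC3 KO (adjusted p = 0.0640), and its log2 fold change turned from negative to 0.13 with the offset (adjusted p = 0.872). Neither passed on the counts as deposited.

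A broad list of 30 genes for KAP1 and other silencing factors, all of them counted, was also followed. It held genes such as Dnmt1, Fam208a and Morc3, and was not limited to proteins that KRAB zinc fingers recruit. With ACs 1 of the 29 tested (3.45%, beside 3.75% of all genes) was called in HDAC3 KO against WT, Fam208a, the TASOR subunit of the HUSH silencing complex, with −2.26 ± 0.51 on the log2 scale (adjusted p = 0.0271), and with −1.22 under the offset (adjusted p = 0.0755). Its CPM was 14.3, 7.61 and 12.1 in WT and 1.27, 2.78 and 3.31 in HDAC3 KO. With the offset the NuRD subunits Mta1 (1.31) and Gatad2a (1.53) were called instead, both higher, which is 2 of 29 beside 9.72% of all genes. Untreated, 2 of 29 passed (6.90%, beside 11.6% of all genes) and none with the offset: Morc3, an ATPase that silences endogenous retroviruses, was lower (−2.57) and Mbd3, a NuRD subunit, higher (1.44). With NACs none of the 30 passed, beside 0.864% of all genes. Within HDAC3 KO, ACs against NACs, Mta1 (1.35) and Gatad2a (1.49) were higher and Morc3 (−1.75) and Fam208a (−1.89) lower, 4 of 30 beside 7.38% of all genes. Gatad2a and Morc3 were called again with the offset, 2 of 30 beside 5.33% of all genes. Morc3 followed the order of the low-GC Zfp genes, with NACs lower in WT (−1.72) and higher in HDAC3 KO (2.46) than untreated, and was called in neither with the offset. KAP1 itself (Trim28) passed in none of the 3 genotype comparisons. Untreated, it was at 98.1, 113 and 225 CPM in WT and 304, 395 and 451 in HDAC3 KO, groups that did not overlap (log2 fold change 1.33 ± 0.43, adjusted p = 0.0558, and 0.59 and 0.377 with the offset). With NACs it was at 381, 244 and 369 CPM in WT and 144, 250 and 199 in HDAC3 KO, which overlapped. With ACs it was at 160, 423 and 285 CPM in WT and 182, 125 and 323 in HDAC3 KO, and the groups overlapped. Medians of the list in HDAC3 KO against WT were 0.36 with ACs, 0.19 with NACs and −0.047 untreated, beside −0.27, 0.31 and −0.19 in the 147 Zfp genes and −0.0062, −0.0031 and 0.058 in all genes tested. The untreated median of the Zfp genes was −0.44 without replicate 1 of HDAC3 KO and 0.0053 without replicate 2 of WT.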

How the data were processed

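RNA from BMDMs of 6 groups was sequenced as paired reads in 18 libraries. Per the labels and the submitters' processing notes, the authors trimmed reads (Trimmomatic 0.36), aligned them to GRCm38 (STAR 2.5.2b) and counted them on genes (Subread 1.5.2). The annotation release and the strand setting are not given in the sources used here. The deposited values are whole counts per gene and library, with no normalization.

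A fit over all genes was made for every comparison from the libraries it compares, in R 4.3.3 with edgeR 4.0.16 (filterByExpr with a minimum count of 10 and a minimum total of 15, TMM scaling, robust glmQLFit and glmQLFTest), with Benjamini-Hochberg adjustment and a threshold of 0.05. All 147 Zfp genes passed the filter in each comparison. CPM used TMM-scaled totals, with a pseudocount of 1 on the log2 scale. The GC and length offset was a smooth per library (mgcv 1.9.3) on the GC content over a gene's GENCODE M21 transcripts and on exon length. A KRAB pattern meant 13 of 21 positions matched. Tests were checked on simulated data from the libraries with ACs. With 200 genes changed of 11823, edgeR recovered 140 and called 15 unchanged genes, and the DESeq2 Wald test 158 and 40. With a GC trend added, over 11908 genes, edgeR recovered none without the offset and 151 with it, and the DESeq2 Wald test recovered 92. That trend was of the kind the offset takes out, and on average it was equal in the 2 groups. The check therefore cannot show how the offset behaves where a GC trend goes with the group. Alternatives were DESeq2 1.42.0 (size factors, and the Wald test), no filter, a single fit to all 18 libraries, the offset, blocks for replicate number, and each library left out in turn.

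Named genes were the list with known roles, up to 5 called genes per direction with the largest change in each comparison (the 3 lowest p where under 3 were called), and the 5 highest per length. Cell type markers were lists of 6 to 10 genes. Further called genes were named to complete counts. The genes, lists and rules were chosen with earlier results of these data known. Reads were not realigned. p-values measure the spread between the 3 libraries of a group.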

Additional observations from a re-analysis of the deposited data

Results flagged for a closer look

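The HDAC3 KO minus WT difference changed between NACs and no treatment in 72 Zfp genes by the interaction test (edgeR, adjusted p under 0.05). Of all genes 34.8% passed the same test. With the offset for GC and length 26 of the 147 passed, beside 8.82% of all genes. Of these 26, 19 were among the 72 and in the same direction. Among the 72 the difference was most raised with NACs in Zfp146 (4.64 on the log2 scale), Zfp429 (4.40), Zfp426 (4.29), Zfp748 (4.24) and Zfp277 (4.08). These were chosen after their values were seen. Counts in the 3 untreated HDAC3 KO libraries were low, at 3, 43 and 31 in Zfp146, 8, 27 and 21 in Zfp429, and 4, 28 and 13 in Zfp748. Zfp426 had 4, 61 and 38 there and Zfp277 23, 131 and 101. Zfp146, Zfp429 and Zfp748 thus passed the count rule through other groups, and the size of these differences is uncertain. Among genes that passed, it was most lowered in Zfp703 (−2.21), Zfp771 (−2.18), Zfp282 (−2.04), Zfp622 (−1.88) and Zfp775 (−1.81). Under the offset for GC and length Zfp146 was at 3.56, Zfp429 at 2.63, Zfp277 at 2.06 and Zfp622 at −3.57, and Zfp703 at −0.65 and Zfp771 at −0.56. Of the 147 genes 112 kept the sign of this difference with the offset. The same share over all genes is not given, so this is not read as particular to the Zfp genes.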

How the results depend on the processing

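The results depend on the offset for GC content and length and on single libraries. A lone percentage in parentheses is the share of all genes called in the same fit. Where no share stands beside a count from a fit with a library left out, here or above, such a count is not read as particular to the Zfp genes. The number of Zfp genes called in HDAC3 KO against WT with ACs was 15, and it was 30 with the DESeq2 Wald test (11.2%) and 0 to 34 with a library left out, offset included. With the offset and a WT library left out it was 5, 6 or 7. With NACs it was 1, and 3 with the Wald test (3.70%), 8 with no filter (2.28%), 0 with all libraries in one fit, 0 with the offset and 0 to 47 with a library left out. Untreated it was 28, and 57 with the Wald test (27.1%), 58 with all libraries in one fit (24.2%), 0 with the offset and 0 to 90 with a library left out. ACs against NACs in HDAC3 KO went from 20 to 8 with all libraries in one fit (1.84%), 12 with the offset (5.33%) and 0 to 52 with a library left out. ACs against untreated in HDAC3 KO went from 0 to 2 with no filter (0.124%). NACs against untreated in WT went from 18 to 8 with no filter (1.74%), 0 with all libraries in one fit, 0 with the offset and 0 to 66 with a library left out (none without replicate 1 of untreated WT). In HDAC3 KO they went from 20 to 0 with the size factors of DESeq2, 41 with the Wald test (18.8%), 0 with the offset and 0 to 76 with a library left out (none without replicate 2 of untreated HDAC3 KO). The interaction of genotype with ACs or NACs went from 0 to 1 with the size factors (0.291%), 19 with the Wald test (5.80%), 15 with no filter (1.92%), 5 with the offset (1.77%) and 0 to 24 with a library left out. That with ACs or no treatment went from 0 to 18 with the Wald test (9.26%), 3 with no filter (0.505%) and 0 to 14 with a library left out. That with NACs or no treatment went from 72 (34.8%) to 26 with the offset (8.82%). It was 52 to 103 with a library left out, and the share of all genes in those fits is not given. ACs against NACs and against untreated in WT, and ACs against untreated in HDAC3 KO, gave 0 with each library left out. With 276 Zfp genes of a mean of 10 or more counts in place of the 147, 20 of 263 tested were called with ACs (7.61%, beside 3.75% of all genes), 1 of 272 with NACs (0.368%, beside 0.864%) and 41 of 271 untreated (15.1%, beside 11.6%), and their median log2 fold changes were −0.42, 0.47 and −0.92. The cause of these changes was not tested.

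The median log2 fold change of the 147 genes also moved. With ACs it was −0.27, and −0.14 with no filter, −0.21 with all libraries in one fit and −0.38 to −0.16 with a library left out, offset included (−0.38 to −0.19 without the offset). With NACs it was 0.31, 0.20 with the offset and 0.26 to 0.41 with a library left out. Untreated it was −0.19, and −0.029 with the size factors, −0.026 with the Wald test, −0.063 with all libraries in one fit, −0.10 with the offset and −0.44 to 0.0053 with a library left out. For ACs against NACs it was 0.29 in WT, 0.18 with the offset and 0.22 to 0.32 with a library left out, and in HDAC3 KO −0.11, −0.23 with the offset and −0.24 to −0.058. For ACs against untreated in WT it was −0.15, and −0.058 and −0.057 with DESeq2, −0.070 with all libraries in one fit, −0.024 with the offset and −0.13 to 0.046. In HDAC3 KO it was 0.037, and turned negative with DESeq2 (−0.076 and −0.080) and with all libraries in one fit (−0.088), while it was 0.12 with no filter and −0.050 to 0.13 with a library left out. For NACs against untreated in WT it was −0.40, and −0.30 with the size factors and −0.30 with the Wald test, −0.15 with the offset and −0.50 to −0.26, and in HDAC3 KO 0.17, −0.011 and −0.032 with DESeq2, 0.0031 with all libraries in one fit and 0.051 to 0.45.

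Replicate numbers did not pair the libraries: deviations of same-numbered libraries correlated with a median of 0.015 (−0.49 to 0.62 over 45 pairs), beside −0.018 for different numbers. With the replicate block 2 genes were called with NACs (1.82%), 30 in NACs against untreated in WT (15.0%), 0 in HDAC3 KO (0%) and 5 in the interaction with ACs or NACs (1.16%), and the medians were −0.39 untreated, −0.19 for ACs against NACs in HDAC3 KO, 0.16 for ACs against untreated in HDAC3 KO and 0.49 for NACs against untreated in HDAC3 KO. The replicate block with the offset gave 0 with NACs, 0 untreated, 1 in ACs against untreated in WT (0.680%), 0 in NACs against untreated in WT and in HDAC3 KO, 3 in the interaction with ACs or NACs (1.36%) and 15 in that with NACs or no treatment (5.94%). Its medians were 0.18 with NACs, 0.20 for ACs against NACs in WT, −0.28 in HDAC3 KO, −0.022 for ACs against untreated in WT and −0.12 for NACs against untreated in WT. Of 84 fold changes of named genes followed through these settings, 1 changed direction, that of Zfp207 untreated, which was 0.13 with the offset and 0.094 with the replicate block and the offset. For the 68 of them that were called, the call was lost in 270 of 564 fits with a library left out and in 140 of 476 with the other settings. In the smallest library, replicate 1 of untreated HDAC3 KO, 51 of the 147 genes reached 50 counts.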
